A study of Mus musculus with 3 samples.

Results

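Transcripts of the lysosomal cathepsins and of the vacuolar proton pump (V-ATPase) were followed through 3 bulk liver libraries from mice. The members were the protein-coding genes whose symbols begin with Cts, or with Atp6v or Atp6ap, 48 of 22026 protein-coding genes among 35275 genes listed: 23 cathepsin genes and 25 pump genes. All 3 libraries came from liver of male C57BL/6 (C57BL/6J in the treatment text) mice that entered their diets at 10 weeks of age, and each group was 1 library. The control library came from untreated mice on normal chow, whose total weeks on chow and age at collection the labels do not give. The NASH library (nonalcoholic steatohepatitis) came from untreated mice on western diet with liquid fructose, with 24 weeks in its label. Mice behind the TH-treated NASH library ate that diet for 16 weeks and next received the thyroid hormones T3 (35 ng/g) and T4 (7 ng/g) for 8 weeks, in drinking water with 15% fructose. Whether several animals went into 1 library is not stated. No difference below has a replicate check, no test between groups was possible, and "higher" and "lower" compare these libraries only. In bulk liver, fewer cells of a type and less RNA per cell cannot be told apart.

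Lysosomes digest proteins, lipids and glycans delivered by endocytosis and autophagy. Cathepsins are their proteases, made as inactive precursors and activated at acid pH. They fall into cysteine (papain-type), aspartic and serine classes. The acid comes from the V-ATPase, whose soluble V1 sector hydrolyses ATP and turns a rotor that drives protons through the membrane-bound V0 sector. Several subunits are encoded by alternative genes, some of them typical of kidney, testis, brain or osteoclasts. In liver, hepatocytes and Kupffer cells (the resident macrophages) both hold many lysosomes. The transcription factor TFEB is known to activate lysosomal genes through CLEAR elements, promoter sites built around the letters CACGTG.

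Promoter windows of the members, from 250 bases before to 50 after each start site, were taken from RefSeq (GRCm38.p6), which matched 37 of the 48 members with 41 windows. The 6 letters CACGTG, which read the same on both strands, stood in 9 of the 41 windows (22%), against 7.15% of all 32851 windows of the same length. The longer palindrome TCACGTGA, which contains CACGTG, stood in 5 of the 41 (12.2%) against 0.974% of all windows. The 5 windows that hold it are shown because they span both families and hold the form closest to a CLEAR element. Capitals mark TCACGTGA and any other CACGTG.
Ctsd: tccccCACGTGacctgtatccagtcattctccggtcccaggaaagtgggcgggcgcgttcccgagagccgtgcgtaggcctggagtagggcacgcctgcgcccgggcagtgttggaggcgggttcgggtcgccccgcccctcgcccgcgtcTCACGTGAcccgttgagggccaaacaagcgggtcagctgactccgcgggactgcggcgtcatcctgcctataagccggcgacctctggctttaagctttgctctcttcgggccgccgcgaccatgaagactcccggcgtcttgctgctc
Ctsa: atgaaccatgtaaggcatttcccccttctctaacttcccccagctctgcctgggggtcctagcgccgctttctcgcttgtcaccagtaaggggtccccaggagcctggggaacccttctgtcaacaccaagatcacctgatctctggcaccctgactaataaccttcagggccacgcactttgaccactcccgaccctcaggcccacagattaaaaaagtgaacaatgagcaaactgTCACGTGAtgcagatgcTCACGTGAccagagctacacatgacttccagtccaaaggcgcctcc
Atp6v1a: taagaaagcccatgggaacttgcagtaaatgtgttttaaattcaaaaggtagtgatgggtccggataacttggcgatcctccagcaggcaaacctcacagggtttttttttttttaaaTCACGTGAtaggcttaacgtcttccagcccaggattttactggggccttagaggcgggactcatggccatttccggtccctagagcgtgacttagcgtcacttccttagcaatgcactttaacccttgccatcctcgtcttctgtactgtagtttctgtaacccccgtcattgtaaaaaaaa
Atp6v0d1: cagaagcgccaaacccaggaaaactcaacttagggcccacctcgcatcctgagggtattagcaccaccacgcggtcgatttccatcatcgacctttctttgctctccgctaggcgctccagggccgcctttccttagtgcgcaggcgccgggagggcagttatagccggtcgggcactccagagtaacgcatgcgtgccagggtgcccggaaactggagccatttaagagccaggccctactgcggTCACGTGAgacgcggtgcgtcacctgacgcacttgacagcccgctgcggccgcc
Atp6v0e: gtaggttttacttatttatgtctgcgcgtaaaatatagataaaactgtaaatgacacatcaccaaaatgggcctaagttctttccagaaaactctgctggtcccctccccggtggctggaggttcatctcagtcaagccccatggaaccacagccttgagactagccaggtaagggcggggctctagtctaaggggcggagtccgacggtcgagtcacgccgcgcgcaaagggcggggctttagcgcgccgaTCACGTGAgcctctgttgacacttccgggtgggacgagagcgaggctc
These windows are Ctsd at chr7:142387778-142388077 (minus strand), Ctsa at chr2:164833523-164833822 (plus strand), Atp6v1a at chr16:44139210-44139509 (minus strand), Atp6v0d1 at chr8:105566015-105566314 (minus strand) and Atp6v0e at chr17:26676146-26676445 (plus strand). In Ctsd the CACGTG core of the palindrome began 98 bases before the start site, and a second CACGTG began 245 bases before it. In Atp6v0d1 the core began 3 bases before the start site, in Atp6v1a 131 bases before it and in Atp6v0e 3 bases after it. The Ctsa window held the palindrome at 12 bases before and again at 5 bases after the start. CACGTG outside the palindrome also stood in the windows of Ctsf, Ctsl, Ctsll3 and Atp6v0b. A match describes the letters and shows no binding.

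Levels are FPKM (fragment counts divided by gene length and by library total), from 54576236 (control), 47009255 (NASH) and 38303410 (TH-treated NASH) fragments. Folds are ratios of FPKM, and a range in brackets is the exact 95% counting interval, which covers counting error only. A member with a mean of at least 1 FPKM over the 3 libraries was called higher or lower once its log2(FPKM + 1) ratio passed 1.5-fold. That scale understates folds of low genes. That mean was reached by 28 members, 10 cathepsin and 18 pump genes. A further 9 members had fragments but a lower mean: Ctse, Ctsg, Ctsj, Ctsk, Ctsw, Atp6v0a4, Atp6v0d2, Atp6v1c2 and Atp6v1e2. The remaining 11 were listed at 0 in all 3 libraries, where 3 fragments would have given 0.0220 to 0.0660 FPKM depending on gene length and library. Among them were Cts3, Cts6, Cts7, Cts8, Ctsm, Ctsq and Ctsr, placental cathepsins that form a rodent gene cluster, with Ctsll3. Also at 0 were the kidney pump genes Atp6v1b1 and Atp6v1g3, and Atp6ap1l. The liver label was met by Alb, albumin, at 14907 FPKM or more in each library. A list of 7 kidney and stomach markers summed to between 0.470 and 1.49 FPKM. The 8 hepatocyte markers summed to 54208 FPKM in control, against 35403 in NASH and 34246 in TH-treated NASH. In NASH against control 5 of the 8 were lower and none higher, beside 2.2% and 9.69% of all protein-coding genes compared. In TH-treated NASH against NASH 3 were higher and 1 lower, beside 7.13% and 8.41%, and the median log2 ratio of the 8 was 0.39. The part of hepatocytes in the members' values was not tested.

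Among the cysteine cathepsins, Ctsl, an endopeptidase, was the most abundant cathepsin gene in each library, at 254 FPKM in control, against 260.5 in NASH and 374 in TH-treated NASH. Control and NASH stood close together and TH-treated NASH above both. Ctsl was 1.03-fold higher in NASH than in control (1.01 to 1.04) and 1.44-fold higher in TH-treated NASH than in NASH (1.41 to 1.46). Its log2 ratio of 0.52 for the latter lay short of 1.5-fold. Its share of the summed cathepsin level was 27.9%, 22.8% and 29.8% in the same order of libraries.

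Ctss, a protease of antigen-presenting cells that trims the invariant chain of MHC class II, had the largest NASH against control ratio of the 10 cathepsins compared. It stood at 20.3 FPKM in control, against 66.0 in NASH and 51.1 in TH-treated NASH. Both diet libraries lay above control. The ratio was 3.26-fold (3.07 to 3.46) for NASH over control and 2.52-fold (2.37 to 2.69) for TH-treated NASH over control, and Ctss was 1.29-fold lower in TH-treated NASH than in NASH (1.23 to 1.36). Of the 10 cathepsins compared it was the only 1 past 2-fold against control, in both diet libraries, where 3.15% of all protein-coding genes in NASH and 5.04% in TH-treated NASH were at least 2-fold higher and 0.699% and 2.15% at least 2-fold lower. By level it moved from the eighth place among cathepsins in control to the sixth in NASH.

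Macrophage markers were also higher in NASH than in control. Of 20 such markers, 17 reached the mean of 1 FPKM. Of these, 16 stood higher in NASH than in control and 1 (Cd163) lower, beside 9.69% and 2.2% of all genes. The median log2 ratio of the 17 was 1.47. Trem2, Gpnmb, Itgax and Mmp12 reached that mean of 1 FPKM only with the NASH library counted, so their direction followed from the entry rule. The summed level of the 20 markers was 237 FPKM in control, against 703 in NASH and 906 in TH-treated NASH, and none was at 0. Cd68, a lysosomal membrane protein of macrophages, stood at 6.11, 20.3 and 16.0 FPKM in the same order, 3.32-fold higher in NASH than in control and 1.26-fold lower in TH-treated NASH than in NASH. Adgre1, the F4/80 antigen, stood at 2.63, 9.03 and 9.95 FPKM. The part of these cells in the Ctss values was not tested.

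Ctsb, an endopeptidase that also removes dipeptides from the carboxyl end, and Ctsd, the main aspartic protease of lysosomes, were the other 2 of the 3 cathepsins more than 1.5-fold above control in NASH, beside 9.69% of 10442 protein-coding genes higher and 2.2% lower. Ctsb stood at 113 FPKM in control, against 176 in NASH and 149 in TH-treated NASH. Ctsd stood at 161, 255 and 238 FPKM. Both were highest in NASH and lowest in control. NASH over control was 1.57-fold for Ctsb (1.54 to 1.59) and 1.58-fold for Ctsd (1.55 to 1.61). Ctsb overlaps Fdft1, a gene on the other strand at 50.04, 23.2 and 29.3 FPKM, over 767 bases. Reads there cannot be assigned to a strand, since the strand setting is not given in the sources used. Ctsd nearly drew level with Ctsl in NASH, where Ctsl exceeded it 1.02-fold (1.01 to 1.04), and in TH-treated NASH Ctsl exceeded it 1.57-fold (1.54 to 1.6).

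The call of Ctsb and Ctsd depended on the scaling between libraries. Over all protein-coding genes compared, the deposited values gave a median log2 ratio of 0.12 for NASH over control. Median-of-ratios scaling brought it to −0.06 and TMM (trimmed mean) scaling to −0.03. Ctsd then had a log2 ratio of 0.44 and 0.48 and Ctsb of 0.43 and 0.47, short of 1.5-fold, and Ctss alone of the cathepsins stayed past it. Among all protein-coding genes past 1.5-fold, 81.5% were higher in NASH as deposited, 59.9% after median-of-ratios scaling, 64.3% after TMM scaling and 67.6% after centring by gene length.

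Ctsc, dipeptidyl peptidase 1, activates the granule proteases of neutrophils and cytotoxic cells by removing their terminal dipeptide. It stood at 32.8 FPKM in control, against 28.4 in NASH and 55.0 in TH-treated NASH. TH-treated NASH was the high library. Ctsc was 1.94-fold higher there than in NASH (1.86 to 2.01) and 1.68-fold higher than in control (1.62 to 1.74). It was the only 1 of the 10 cathepsins past 1.5-fold in TH-treated NASH against NASH, beside 7.13% of all genes higher and 8.41% lower, and it passed there under both other scalings and after centring by gene length. Against control its log2 ratio of 0.73 became 0.55 with median-of-ratios scaling and 0.54 with TMM, short of 1.5-fold.

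The neutrophil granule protease Ctsg, which Ctsc activates, stood at 0.0183 FPKM in control, against 0.0212 in NASH and 1.02 in TH-treated NASH, on 1, 1 and 39 fragments. Its mean was below 1 FPKM. TH-treated NASH exceeded NASH 47.9-fold, with a counting interval from 8.10 to 1938. Neutrophil markers were highest in the same library. The 10 markers summed to 9.02 FPKM in control, against 10.5 in NASH and 166 in TH-treated NASH, and the 7 that reached the mean of 1 FPKM were all higher in TH-treated NASH than in NASH. Elane, Ngp, Camp and Retnlg reached that mean only through the TH-treated NASH library, so their direction followed from the entry rule. The count of 7 is therefore not read against the shares of all genes. Prtn3, proteinase 3 of the same granules, stood at 4.04, 1.04 and 61.2 FPKM and S100a8, a calgranulin, at 1.45, 3.42 and 40.7 FPKM. In control Ly6g was at 0. The part of these cells in the Ctsc and Ctsg values was not tested.

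**Figure D1:**
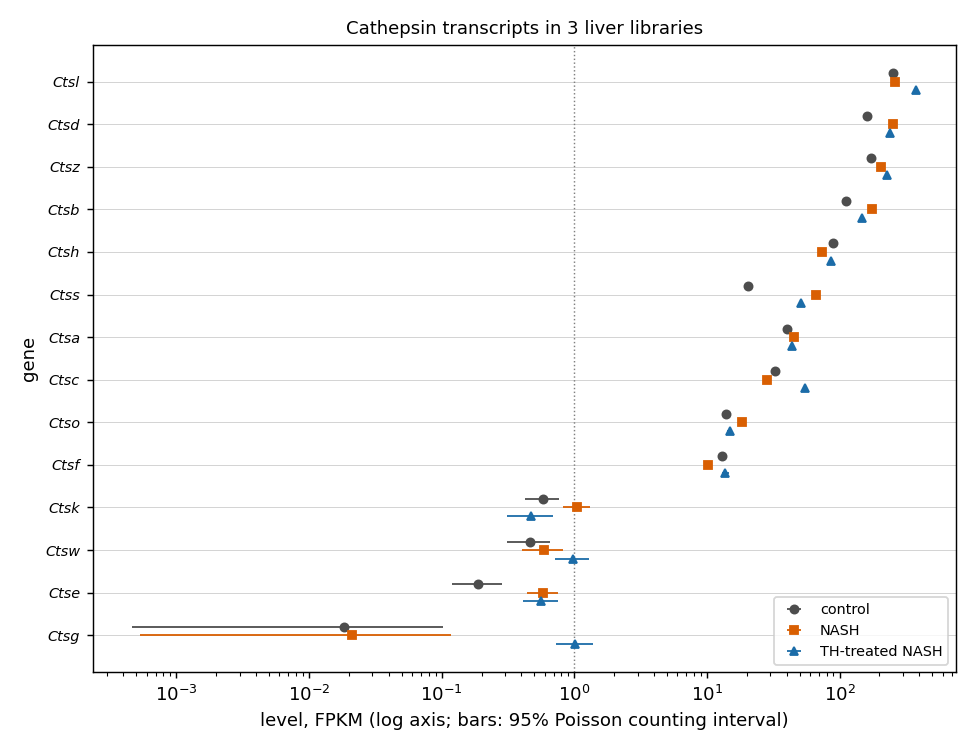
Levels of the 14 cathepsin genes with fragments in all 3 libraries, in FPKM on a log axis; 1 point per library with its 95% Poisson counting interval, and a dotted line at 1 FPKM. Ctss stands apart in control at 20.3 against 66.0 and 51.1 FPKM, and Ctsc and Ctsg are highest in TH-treated NASH, at 55.0 and 1.02 FPKM.

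None of the remaining 5 cathepsins compared was past 1.5-fold. Ctsz (cathepsin X), a carboxypeptidase, stood at 174, 207 and 227 FPKM in control, NASH and TH-treated NASH, 1.31-fold higher in the last than in the first (1.27 to 1.34). Ctsh, an aminopeptidase, stood at 88.7, 74.0 and 86.6 FPKM and Ctsf, a cysteine protease, at 13.1, 10.3 and 13.7 FPKM. With Ctsc, these were the 3 cathepsins that were lower in NASH than in control, Ctsh 1.2-fold (1.17 to 1.23) and Ctsf 1.28-fold (1.18 to 1.39). Ctso, another cysteine protease, stood at 13.8, 18.3 and 14.9 FPKM. Ctsa, the serine carboxypeptidase that also shields lysosomal neuraminidase and beta-galactosidase, stood at 39.8, 45.4 and 43.7 FPKM and overlaps Pltp on the other strand over 1515 bases.

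Below a mean of 1 FPKM, Ctsk, the collagen-degrading cathepsin of osteoclasts and fibroblasts, stood at 0.581 FPKM in control, against 1.05 in NASH and 0.476 in TH-treated NASH. NASH was the high library, 1.80-fold above control (1.23 to 2.66), and TH-treated NASH was 2.20-fold below NASH (1.40 to 3.56). Ctse, an aspartic protease of stomach and immune cells, stood at 0.190, 0.580 and 0.565 FPKM, with control the low library. Ctsw, a cathepsin of T and natural killer cells, stood at 0.461, 0.587 and 0.975 FPKM. The 11 T and natural killer cell markers summed to 3.05, 6.42 and 8.60 FPKM beside it, with 1 of them at 0 in control, and their part in the Ctsw values was not tested. Of these 11 only Nkg7, a granule protein, reached a mean of 1 FPKM, at 0.605, 1.89 and 2.41 FPKM. Ctsj, another gene of the placental cluster, had 0, 9 and 9 fragments.

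Counted together, 3 of 10 cathepsins were higher in NASH than in control and none lower, beside the 9.69% and 2.2% of all genes. In TH-treated NASH against NASH 1 of 10 was higher and none lower, beside 7.13% and 8.41% of all genes. In TH-treated NASH against control 2 of 10, Ctss and Ctsc, were higher and none lower, beside 14.3% and 6.31%. At 2-fold on the log2(FPKM + 1) scale no cathepsin or pump gene compared was higher or lower in TH-treated NASH than in NASH, beside 2.29% and 2.53% of all genes. Each pair of comparisons shares a library. The median log2 ratio of the cathepsins was 0.22 for NASH over control, 0.04 for TH-treated NASH over NASH and 0.39 for TH-treated NASH over control, beside 0.12, −0.04 and 0.11 for all genes. The cathepsin medians were 0.00, 0.08 and 0.21 after median-of-ratios scaling, beside −0.06, −0.004 and −0.04 for all genes. The summed level of the 23 cathepsins was 911, 1143 and 1256 FPKM in control, NASH and TH-treated NASH. Without Ctsl it was 657, 883 and 882 FPKM, so that NASH and TH-treated NASH stood level.

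The proton pump genes stood slightly higher in NASH than in control. As deposited, all 18 that were compared had a log2 ratio above 0 for NASH over control, from 0.06 to 0.69. Of the 18, 16 lay above the median of all genes as deposited, 15 with median-of-ratios scaling and 16 with TMM. Above 0 were 13 with median-of-ratios scaling and 14 with TMM. The median log2 ratio of the 18 was 0.24 as deposited, 0.03 with median-of-ratios scaling and 0.07 with TMM. The median of all genes in the same settings was 0.12, −0.06 and −0.03. Past 1.5-fold were 2 of 18, both of the V0 sector, beside 9.69% of all genes, and none was lower. On the log2(FPKM + 1) scale none of the 9 V1 genes compared was past 1.5-fold in NASH or TH-treated NASH against control. With a pseudocount of 0.1 FPKM, Atp6v1g2 at −0.76 and Atp6v1c1 at 0.61 passed it in TH-treated NASH.

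**Figure D2:**
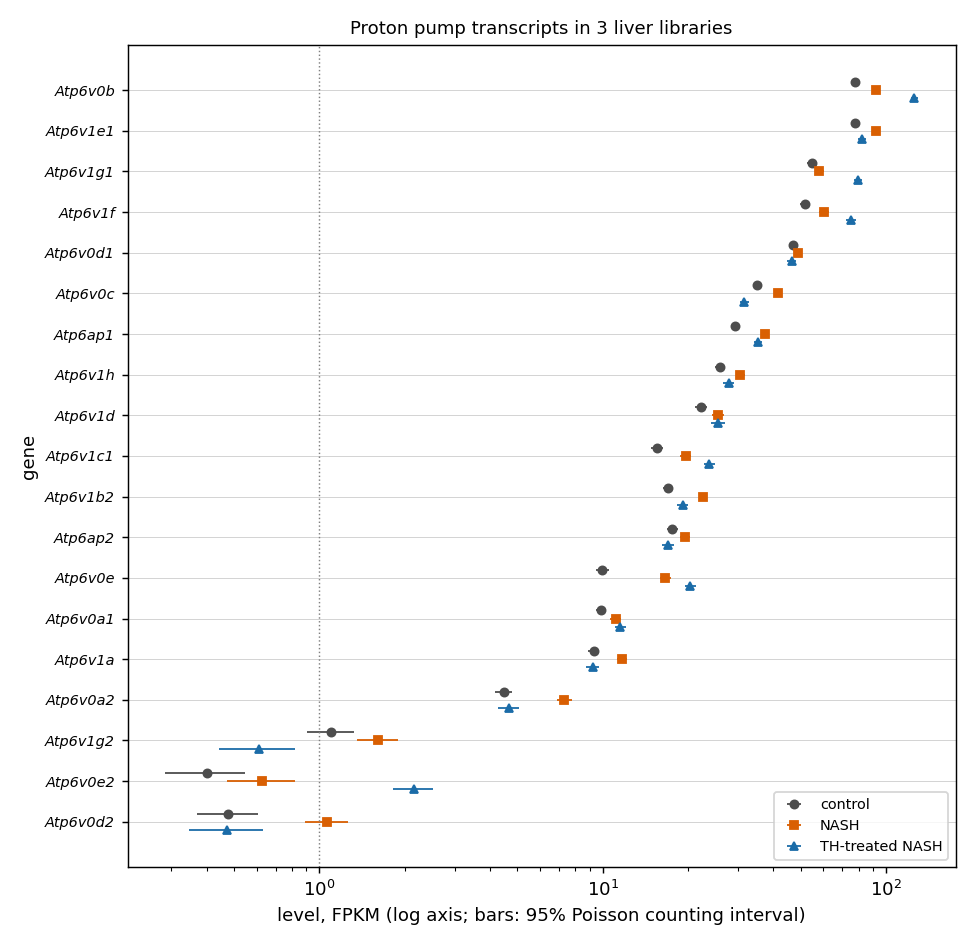
Levels of the 19 proton pump genes with fragments in all 3 libraries, in FPKM on a log axis; 1 point per library with its 95% Poisson counting interval, and a dotted line at 1 FPKM. In most rows NASH stands a little to the right of control, and Atp6v0b, Atp6v0e and Atp6v0e2 stand highest in TH-treated NASH, at 126, 20.4 and 2.15 FPKM.

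In the V1 sector, Atp6v1a, the catalytic subunit A that binds ATP, stood at 9.30 FPKM in control, against 11.7 in NASH and 9.22 in TH-treated NASH. Its partner in the ATPase ring, Atp6v1b2 (subunit B), stood at 17.0, 22.6 and 19.2 FPKM. NASH was the high library for both, 1.26-fold above control for Atp6v1a (1.19 to 1.34) and 1.33-fold for Atp6v1b2 (1.26 to 1.40). The regulatory subunit Atp6v1h stood at 25.9, 30.6 and 27.8 FPKM and the stator subunit Atp6v1e1 at 77.6, 92.1 and 82.5 FPKM, in the same order of libraries.

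Another group of V1 genes was highest in TH-treated NASH. Atp6v1g1, of the peripheral stalk, stood at 54.6, 58.1 and 79.8 FPKM in control, NASH and TH-treated NASH. Atp6v1f, of the central stalk, stood at 51.7, 60.4 and 75 FPKM, and Atp6v1c1, the clamp that joins V1 to V0, at 15.5, 19.7 and 23.8 FPKM. TH-treated NASH exceeded NASH 1.37-fold for Atp6v1g1 (1.31 to 1.44), 1.24-fold for Atp6v1f (1.17 to 1.32) and 1.21-fold for Atp6v1c1 (1.13 to 1.29). Against control, Atp6v1c1 was 1.53-fold higher by its FPKM, but its log2(FPKM + 1) ratio of 0.58 lay just short of the threshold. Atp6v1d, a rotor subunit, stood at 22.3, 25.5 and 25.5 FPKM.

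In the membrane sector V0, Atp6v0e, a small membrane subunit, stood at 9.97 FPKM in control, against 16.7 in NASH and 20.4 in TH-treated NASH. Control was the low library. NASH was 1.67-fold above control (1.56 to 1.78) and TH-treated NASH 2.05-fold (1.91 to 2.18). Atp6v0a2, a form of subunit a found in Golgi and endosomes, stood at 4.47, 7.31 and 4.65 FPKM. Here NASH alone was high, 1.64-fold above control (1.49 to 1.80), and TH-treated NASH was 1.57-fold below NASH (1.41 to 1.75). Neither gene kept its 1.5-fold call for NASH over control after median-of-ratios scaling, with log2 ratios of 0.49 for Atp6v0e and 0.42 for Atp6v0a2, whereas Atp6v0e against control in TH-treated NASH stayed past it.

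Atp6v0b and Atp6v0c encode the proteolipids of the proton-carrying ring. Atp6v0b stood at 77.6, 92.0 and 126 FPKM in control, NASH and TH-treated NASH, and Atp6v0c at 35.1, 41.6 and 31.6 FPKM. They differed in direction in TH-treated NASH, where Atp6v0b was 1.37-fold higher than in NASH (1.31 to 1.43) and Atp6v0c 1.32-fold lower (1.26 to 1.38). Atp6v0b was 1.62-fold above control there (1.56 to 1.69), which fell short of the threshold at a log2 ratio of 0.52 after median-of-ratios scaling. The antisense gene Gm12841 overlaps it over 1670 bases and stood at 5.96, 7.05 and 8.81 FPKM. Atp6v0d1, the coupling subunit d, stood at 47.1, 49.0 and 46.5 FPKM, with NASH 1.04-fold above control (0.996 to 1.09).

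The accessory proteins showed small differences. Atp6ap1, which helps to assemble V0, stood at 29.2, 37.5 and 35.3 FPKM. Atp6ap2, the (pro)renin receptor, stood at 17.6, 19.5 and 17.0 FPKM. NASH was the high library for both.

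Genes for the same subunit shared its transcripts unequally. Subunit a has the genes Atp6v0a1, Atp6v0a2, Atp6v0a4 and Tcirg1, of which Tcirg1, the a3 form of osteoclasts and macrophages, carries another symbol and is not a member. Tcirg1 stood at 13.7, 17.0 and 27.4 FPKM in control, NASH and TH-treated NASH. It held 48.8% of the summed subunit a level in control (47.5 to 50.2). The share was 48.0% with NASH (46.6 to 49.3) and 62.9% with TH-treated NASH (61.6 to 64.1). Its share was high in TH-treated NASH, where those of Atp6v0a1 (26.5%) and Atp6v0a2 (10.7%) were at their lowest. The level of Atp6v0a1 itself was highest there, at 9.84, 11.1 and 11.5 FPKM in control, NASH and TH-treated NASH. In NASH Atp6v0a2 held 20.6%, against 16.0% in control. The kidney form Atp6v0a4 had 2, 3 and 0 fragments. Macrophage and neutrophil marker sums were also highest in TH-treated NASH, and their part in the Tcirg1 share was not tested.

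Atp6v0d2, the subunit d form of osteoclasts and macrophages, stood at 0.476 FPKM in control, against 1.06 in NASH and 0.473 in TH-treated NASH, below a mean of 1 FPKM. NASH was the high library, 2.23-fold above control (1.65 to 3.06) and 2.25-fold above TH-treated NASH (1.59 to 3.22). Its share of subunit d was 1.001%, 2.12% and 1.01%, so Atp6v0d1 held nearly the whole. The macrophage markers summed to 906 FPKM in TH-treated NASH, against 703 in NASH, and the 17 compared had a median log2 ratio of 0.13. Of the 17 compared, 4 were higher in TH-treated NASH and 2, Gpnmb and Mmp12, lower, beside 7.13% and 8.41% of all genes. Gpnmb and Mmp12 reached the mean of 1 FPKM only with the NASH library counted, so their direction followed from the entry rule. Nothing about the other markers is read from these 2. Gpnmb stood at 0.0289, 5.19 and 0.124 FPKM and Mmp12 at 0.197, 3.78 and 0.385 FPKM. The part of macrophages in the Atp6v0d2 and Ctsk values was not tested.

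Atp6v0e2, a second gene for subunit e, stood at 0.400 FPKM in control, against 0.627 in NASH and 2.15 in TH-treated NASH, on 40, 54 and 151 fragments. TH-treated NASH was the high library, 3.43-fold above NASH (2.50 to 4.77) and 5.38-fold above control (3.77 to 7.83). It reached the mean of 1 FPKM only through that library, so a difference there followed from the entry rule. Its share of subunit e was 3.86% in control and 3.63% in NASH, against 9.55% in TH-treated NASH. Atp6v1g2, the brain form of subunit G, stood at 1.10, 1.61 and 0.610 FPKM, 2.63-fold lower in TH-treated NASH than in NASH (1.86 to 3.78) and 1.80-fold lower than in control (1.26 to 2.62), and overlaps Nfkbil1 on the other strand over 2133 bases. Atp6v1c2 and Atp6v1e2, minor forms of subunits C and E, had at most 7 fragments in any library.

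**Figure D3:**
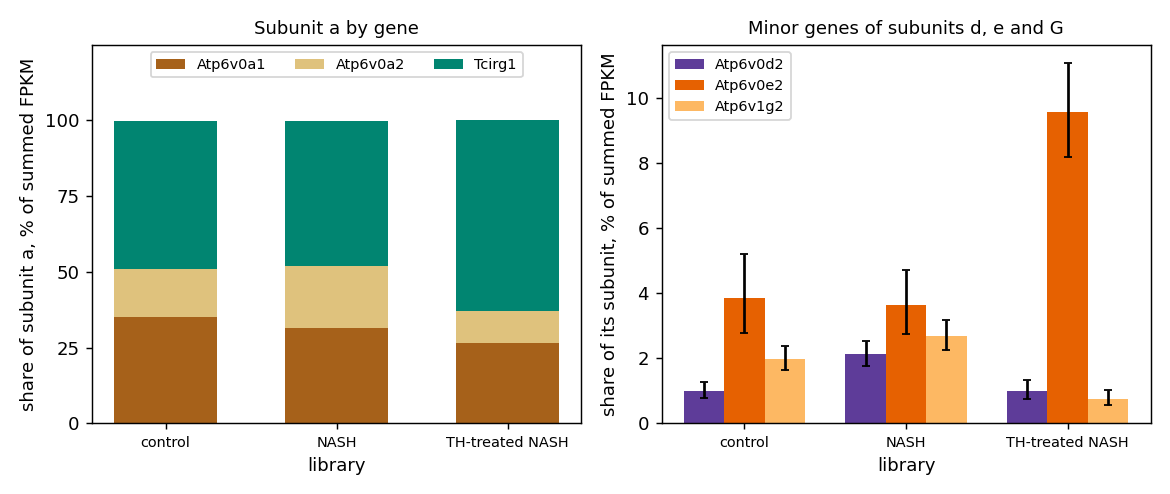
Share of each gene in the summed FPKM of its pump subunit, in percent, per library: subunit a on the left as stacked bars without Atp6v0a4, and the minor genes of subunits d, e and G on the right with 95% counting intervals as bars. In TH-treated NASH Tcirg1 holds 62.9% of subunit a and Atp6v0e2 9.55% of subunit e, and in NASH Atp6v0d2 holds 2.12% of subunit d.

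Counted together in TH-treated NASH against NASH, 1 of 18 pump genes (Atp6v0e2) was higher and 1 (Atp6v1g2) lower, beside 7.13% and 8.41% of all genes. Each reached the mean of 1 FPKM only with its high library counted, TH-treated NASH for Atp6v0e2 and NASH for Atp6v1g2, so nothing is read from these counts against the shares of all genes. With a mean of at least 5 FPKM required, neither was left. The median of the pump genes was −0.08, beside −0.04 for all genes, with 8 of 18 above 0. Against control, 3 of 18 were higher in TH-treated NASH (Atp6v0b, Atp6v0e and Atp6v0e2) and none lower, beside 14.3% and 6.31% of all genes. The call of Atp6v0e2 there also followed from the entry rule. With a mean of at least 5 FPKM required, 2 of 16 were higher, beside 13.7% of all genes. The median of the 18 went from 0.18 to 0.01 with median-of-ratios scaling and −0.0045 with TMM. That of all genes was −0.04 and −0.05 in these 2 scalings. In that comparison, 69.3% of all genes past 1.5-fold were higher as deposited, 48.2% after median-of-ratios scaling, 46.8% after TMM scaling and 52.7% after centring by gene length. The summed level of the 25 pump genes was 507, 599 and 639 FPKM in control, NASH and TH-treated NASH.

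**Figure D4:**
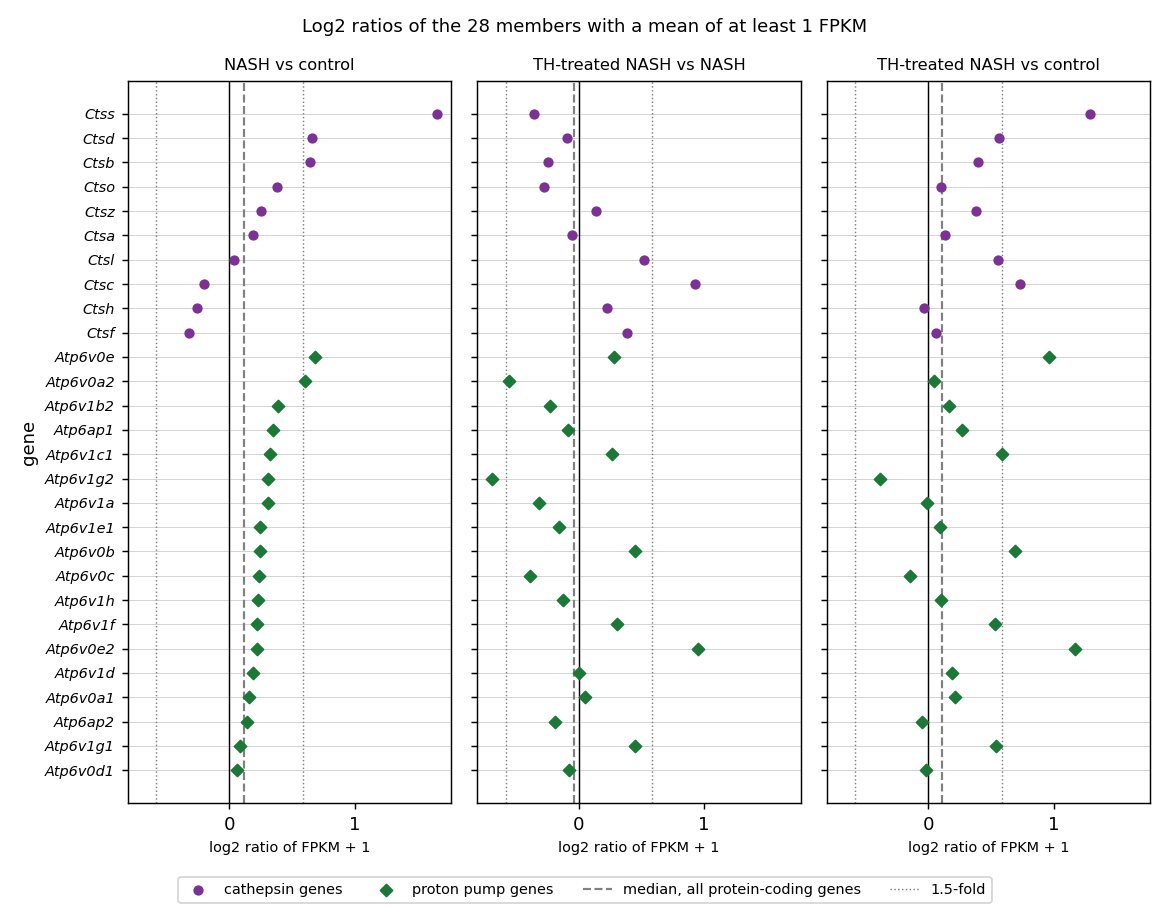
Log2 ratios of FPKM + 1 for the 28 members with a mean of at least 1 FPKM in the 3 comparisons, 1 point per gene; the dashed line is the median of all protein-coding genes and the dotted lines mark 1.5-fold. In NASH against control the pump genes lie between 0.06 and 0.69 and Ctss reaches 1.65; the comparisons share libraries, so panels are not independent.

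Gene length moved with the differences between TH-treated NASH and NASH. Across all protein-coding genes the median log2 ratio went from 0.19 in the shortest of 10 length bins (up to 1229 bases) to −0.12 in the longest (from 6133 bases). Of the 5 pump genes up to 1500 bases long, 4 were above 0, among them Atp6v0b, Atp6v1f and Atp6v1g1, with a median of 0.31. Of the 13 longer ones 4 were above 0, with a median of −0.13. Spearman's rho between length and log2 ratio was −0.53 over the 18 pump genes and −0.09 over the 10 cathepsins, given as a description of genes that share the libraries. After centring on genes of like length, the ratio of Atp6v0b for TH-treated NASH over control went from 0.69 to 0.32 on the log2 scale, whereas Ctsc and Atp6v0e stayed past 1.5-fold. The part of length in the ratios was not tested further.

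**Figure D5:**
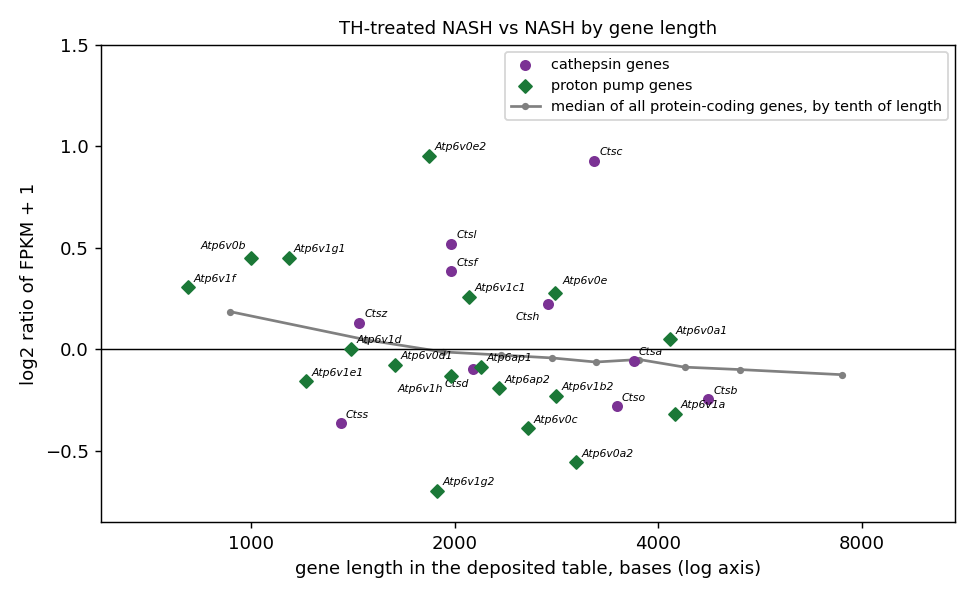
Log2 ratio of FPKM + 1 for TH-treated NASH over NASH against gene length in bases (log axis), 1 point per member with a mean of at least 1 FPKM; the grey line joins the medians of all protein-coding genes in 10 bins of length. Short pump genes such as Atp6v0b at 0.45 lie above most longer ones such as Atp6v0c at −0.39, and Ctsc at 0.93 lies far above the line.

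The 5 genes whose promoter windows held TCACGTGA had no common ratio. Their NASH over control ratios were 1.58-fold for Ctsd, 1.14-fold for Ctsa, 1.26-fold for Atp6v1a, 1.04-fold for Atp6v0d1 and 1.67-fold for Atp6v0e. The ends of this range, Atp6v0d1 and Atp6v0e, were also the lowest and highest of the 18 pump genes compared, so it had to cover all 18. Of the 28 members with a mean of at least 1 FPKM, 21 had a window. The part of the motif in the ratios was not tested. Ctss and Ctsc, the cathepsins with the largest log2(FPKM + 1) ratios among the 10 compared, were not among the genes with CACGTG in a window. The same would hold for any gene without a window.

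Genes that act with the members were read from fixed lists under the same rule. Their counts use the deposited values and were not recomputed with the other scalings or after centring by gene length. In the list for TFEB and lysosomal mTORC1 control, none of the 18 compared was past 1.5-fold in NASH against control. Of all genes, 9.69% were higher there and 2.2% lower. The median log2 ratio of the 18 was 0.23, beside 0.12 for all genes. Tfeb itself stood at 4.26, 5.35 and 5.83 FPKM in control, NASH and TH-treated NASH. Its relative Tfec, a form found in macrophages, stood at 0.700, 1.10 and 1.83 FPKM, and Fnip2, a partner of folliculin, was 1.66-fold lower in TH-treated NASH than in NASH, the 1 call there, beside 8.41% of all genes lower. Lamtor5, a Ragulator subunit, stood at 24.7, 29.8 and 38.1 FPKM. With Tfec it was 1 of 2 genes higher in TH-treated NASH than in control, beside 14.3% of all genes. Tfec reached the mean of 1 FPKM only with the TH-treated NASH library counted, so its direction there followed from the entry rule.

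Other lysosomal enzymes were counted in the same way. Of 40 further hydrolases and activators, 8 were higher in NASH than in control and none lower, beside 9.69% and 2.2% of all genes. In TH-treated NASH against NASH none was higher and 6 were lower, beside 7.13% and 8.41%. In TH-treated NASH against control 9 were higher and 1 lower, beside 14.3% and 6.31%. Lgmn, the protease legumain that processes cathepsins, stood at 28.4, 59.6 and 69.2 FPKM. Ifi30, a thiol reductase of antigen processing, stood at 15.6, 31.8 and 37.0 FPKM. Arsa, arylsulfatase A, stood at 23.6, 24.4 and 8.93 FPKM, 2.73-fold lower in TH-treated NASH than in NASH.

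Of 20 lysosomal membrane proteins 4 were higher in NASH than in control and none lower, beside 9.69% and 2.2% of all genes. In TH-treated NASH against NASH 1 was higher and 2 lower, near the 7.13% and 8.41% of all genes. Against control 5 were higher and 1 lower, beside 14.3% and 6.31%. Past Cd68, the tetraspanin Cd63 stood at 5.25, 35.4 and 39.3 FPKM, Laptm5, a protein of blood cells, at 6.25, 19.6 and 30.7 FPKM, and Tmem192 at 7.47, 13.1 and 15.9 FPKM. Lamp1, the most abundant of the list, stood at 307, 417 and 268 FPKM, so that TH-treated NASH was the low library, unlike for Ctsl or Ctsd.

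Of the 16 genes that sort enzymes to lysosomes, Cln6 was higher and Sort1 lower in NASH than in control, beside 9.69% and 2.2% of all genes. Sort1, the sorting receptor sortilin, stood at 3.09, 1.27 and 3.75 FPKM, 2.96-fold higher in TH-treated NASH than in NASH (2.63 to 3.33). Vps35, of the retromer that returns receptors, stood at 20.9, 26.9 and 16.9 FPKM, and was 1 of 3 genes of the list lower in TH-treated NASH than in NASH, against 1 higher, beside 8.41% and 7.13% of all genes.

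Of 11 cathepsin inhibitors 5 reached the mean of 1 FPKM, 3 of these higher in NASH than in control and 1 lower, beside 9.69% and 2.2% of all genes. Cystatin C (Cst3), secreted, stood at 153, 221 and 187 FPKM and cystatin B (Cstb), cytosolic, at 46.9, 74.2 and 63.0 FPKM. Both were highest in NASH, as Ctsb and Ctsd were. Serpina3g, a serpin that inhibits cysteine cathepsins, stood at 3.51, 12.1 and 18.0 FPKM and Serpinb6a at 5.13, 11.5 and 16.7 FPKM, while Serpinb1a, an inhibitor of neutrophil proteases including cathepsin G, stood at 2.70, 1.44 and 0.858 FPKM. Of 10 pump assembly genes and partners compared, the 1 past 1.5-fold in any comparison was Tcirg1. It was higher in TH-treated NASH than in either other library, by 1.61-fold over NASH (1.53 to 1.70) and 2.01-fold over control (1.90 to 2.12). That 1 of 10 lay near the shares of all genes higher in TH-treated NASH, 7.13% against NASH and 14.3% against control.

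As the deposited table gives them, Ctss (ENSMUSG00000038642) lies on chromosome 3 from 95526786 to 95556403, Ctsb (ENSMUSG00000021939) on chromosome 14 from 63122462 to 63145919, Ctsd (ENSMUSG00000007891) on chromosome 7 from 142371148 to 142388038 and Ctsc (ENSMUSG00000030560) on chromosome 7 from 88278085 to 88310888. Ctsk (ENSMUSG00000028111) lies beside Ctss on chromosome 3 from 95499286 to 95509362. Atp6v0e (ENSMUSG00000015575) lies on chromosome 17 from 26676396 to 26699644, Atp6v0a2 (ENSMUSG00000038023) on chromosome 5 from 124629067 to 124722144 and Atp6v0b (ENSMUSG00000033379) on chromosome 4 from 117884326 to 117887333. No build is stated for these gene positions in the sources used.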

How the data were processed

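PolyA RNA of 3 liver libraries, 1 per group, was sequenced. The authors deposited FPKM per gene with gene length and position, and the submitters' processing notes name TopHat2 and HTSeq without versions or settings. Products of FPKM, gene length and library total gave fragment numbers, 100% of them whole within 0.01 fragment. Strand mode, annotation and build are not stated. Ratios use log2(FPKM + 1). Calls need 1.5-fold and a mean of at least 1 FPKM over the 3 libraries, for members as for all 10442 protein-coding genes compared. Intervals (95%) are exact: Poisson for levels, conditional binomial (Clopper-Pearson) for ratios and shares. PCR copies are not independent, so they cover counting error only. No test between groups was run. Members were named from the rule. Members past 1.5-fold and up to 4 genes of each of 11 lists (176 entries, all found, Adgre1 by its gene ID) were described, and 1 gene that the rule names is not reported here. Lamp1, Cst3 and the members below 1 FPKM were singled out after their values were seen. Members and lists were chosen with earlier results of these data known. Settings tried are given at the end; centring by gene length was added after seeing the data. Python 3.11.15, numpy 2.4.6, pandas 2.3.3 and scipy 1.17.1 were used, and the steps were tested on simulated data.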

Additional observations from a re-analysis of the deposited data

How the results depend on the processing

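Counts of members past 1.5-fold, all on the log2(FPKM + pseudocount) scale, were small, so that a single gene moves them. Of 96 recomputed counts, 76 stayed within 1.5 times the value given. For NASH over control, the cathepsins higher went from 3 to 1 (Ctss) after median-of-ratios scaling, TMM scaling, centring by gene length (added after seeing the data) and at 2-fold, and the pump genes higher from 2 to 0 in the same 4 settings. For TH-treated NASH over control, the cathepsins higher went from 2 to 1 after median-of-ratios scaling, TMM scaling and at 2-fold, the pump genes higher from 3 to 1 at 2-fold, and the pump genes lower from 0 to 1 with a pseudocount of 0.1 FPKM. For TH-treated NASH over NASH, the cathepsins higher went from 1 to 2 with no filter on low values, which admits Ctsg, and to 0 at 2-fold. The pump genes higher went from 1 to 0 with a mean of at least 5 FPKM and at 2-fold. The pump genes lower went from 1 to 2 with a pseudocount of 0.1 FPKM and to 0 with a mean of at least 5 FPKM and at 2-fold. No called log2 ratio of a single member changed sign in the 5 settings tried for single members. Thinning every library to 38303410 fragments changed none of the 84 single-gene calls. No paired analysis was possible because each group is 1 library. Members below a mean of 1 FPKM rest on at most 127 fragments, which limits their ratios. Without division by gene length the share of Tcirg1 in subunit a was 43.3%, 43.1% and 57.3%.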
